A study of Mus musculus with 6 samples.

Results

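The Slit and Robo genes encode a ligand and receptor system of 7 genes in the mouse, and Runx1 peaks were counted here at each of them. The members are the secreted ligands Slit1, Slit2 and Slit3 and the receptors Robo1, Robo2, Robo3 and Robo4, 7 of 21887 protein-coding genes in the RefSeq table of build GRCm38.p6 (mm10). They were chosen by name, after Slit3 had been noticed for many peaks 14 days after injury that lacked a sham overlap. A peak belonged to a locus when it met the annotated gene or the 10 kb on either side. Runx1, a DNA-binding transcription factor, was mapped by ChIP-seq, the sequencing of DNA recovered with an antibody to the factor, in GFP+ lung fibroblasts of mice that carry Col1a2-CreERT2 and the mTmG reporter, which share this genotype in all groups. The groups were sham injury, 14 days after intratracheal bleomycin (D14) and 56 days after it (D56), with 1 ChIP library and 1 input library each, 6 libraries in all. Bleomycin damages the lung and brings on fibrosis. The reporter marks cells in which the Col1a2 driver was active when the inducible Cre recombined, so GFP+ cells have a history of Col1a2 activity. How many mice went into a library, their ages and the schedule of Cre induction were not given in the sources used. The comparisons ask which Runx1 peaks the injured libraries hold beyond sham, and which of them the late library holds too.

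Slit proteins are secreted, leucine-rich repeat ligands that bind Robo receptors of the immunoglobulin superfamily. They were first known for repelling growing axons, and the same signal steers cell migration and adhesion in other organs, including the developing lung. Inside the cell, the receptor tail recruits adaptors and GTPase-activating proteins that act on regulators of actin. Robo3 is a divergent receptor of commissural neurons, and Robo4 is the receptor of endothelium. Slit2 and Slit3 each host a copy of the microRNA miR-218 in an intron.

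With 1 library per condition there was no replicate, no test between conditions and no p-value. Tags in the ChIP libraries numbered 48816721 for sham, 78744701 for D14 and 49669125 for D56, and the lists held 25052, 56316 and 15009 peaks on the main chromosomes. Ranges in parentheses after a share are 95% Wilson intervals, which cover counting error alone. Fold enrichment is the authors' ratio of the ChIP pileup at a peak's summit to the local background, and pileup is the height of the fragment signal there. Both were made for each library apart, so they rank peaks within a list and are not compared between lists. The fibroblast markers Col1a1, Col1a2, Col3a1, Pdgfra, Dcn and Tcf21 had a peak in each library (6 of 6 genes). The endothelial markers Pecam1, Cdh5, Kdr, Tie1, Erg and Vwf had one at 3, 6 and 3 of 6 genes (sham, D14, D56). Pericyte and smooth muscle markers had one at 3, 5 and 0 of 5 genes, epithelial markers at 1, 4 and 0 of 5, and leukocyte markers at 2, 3 and 2 of 5. Of all protein-coding genes, 60.3% (sham), 73.3% (D14) and 53.7% (D56) had a peak. A peak does not show expression, and the share of other cells among the isolated ones was not tested.

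The promoters that carried a Runx1 peak are shown first, because they separate the members into 3 patterns. RefSeq gives 8 promoter windows for 6 of the 7 genes, each running from 250 bases before an annotated start to 50 after it, and none for Slit1. Of the 8, 4 met a D14 peak, 2 a sham peak and 2 a D56 peak, beside 40.2%, 31.7% and 27% of all 32851 windows. The Slit2 window and the most downstream of 3 Robo2 windows met a peak in all 3 libraries, as 26.6% of all windows did. The Slit3 and Robo1 windows met a peak at D14 alone, as 8.32% of all windows did. None met a peak at D14 and D56 but not in sham, as 0.411% of all windows did, although at Slit3 a D56 peak ended 8 bp before the window. Sequences run 5′ to 3′ on the gene's strand. Capitals mark the bases under a peak in every library whose peak met the window, so all 3 libraries for Slit2 and Robo2 and D14 for Slit3 and Robo1.
Slit2, chr5:47982905-47983204, plus strand: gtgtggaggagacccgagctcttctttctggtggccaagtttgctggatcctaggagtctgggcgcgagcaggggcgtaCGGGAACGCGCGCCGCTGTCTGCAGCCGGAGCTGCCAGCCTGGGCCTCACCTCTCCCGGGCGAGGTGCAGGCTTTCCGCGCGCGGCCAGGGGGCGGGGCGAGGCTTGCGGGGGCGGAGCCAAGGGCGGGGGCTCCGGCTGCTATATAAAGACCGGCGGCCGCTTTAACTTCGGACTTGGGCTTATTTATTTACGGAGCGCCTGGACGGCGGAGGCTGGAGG
Robo2, chr16:74411776-74412075, minus strand: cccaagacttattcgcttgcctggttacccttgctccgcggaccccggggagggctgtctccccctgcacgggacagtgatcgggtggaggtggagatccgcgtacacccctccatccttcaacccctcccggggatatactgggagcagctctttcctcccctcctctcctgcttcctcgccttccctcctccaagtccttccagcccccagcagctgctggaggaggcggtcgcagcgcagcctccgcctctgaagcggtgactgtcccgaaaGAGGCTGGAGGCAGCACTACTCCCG
Slit3, chr11:35121206-35121505, plus strand: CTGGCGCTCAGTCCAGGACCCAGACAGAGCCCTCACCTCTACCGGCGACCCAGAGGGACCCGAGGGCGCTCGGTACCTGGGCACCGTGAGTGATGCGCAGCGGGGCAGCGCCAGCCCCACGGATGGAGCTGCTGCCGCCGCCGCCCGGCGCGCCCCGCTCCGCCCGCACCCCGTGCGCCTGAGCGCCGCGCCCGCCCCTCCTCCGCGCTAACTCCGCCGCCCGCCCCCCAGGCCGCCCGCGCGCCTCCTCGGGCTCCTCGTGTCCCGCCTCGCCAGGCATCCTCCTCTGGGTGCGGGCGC
Robo1, chr16:72662899-72663198, plus strand: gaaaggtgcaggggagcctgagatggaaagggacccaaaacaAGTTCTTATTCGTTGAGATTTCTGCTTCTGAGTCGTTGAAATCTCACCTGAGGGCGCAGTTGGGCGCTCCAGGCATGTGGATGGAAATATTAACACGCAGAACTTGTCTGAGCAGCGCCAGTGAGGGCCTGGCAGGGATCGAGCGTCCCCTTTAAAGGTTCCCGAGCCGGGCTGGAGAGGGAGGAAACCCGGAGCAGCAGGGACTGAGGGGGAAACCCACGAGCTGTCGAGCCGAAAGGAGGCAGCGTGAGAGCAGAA

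These 4 windows had a GC content of 68.0% (Slit2), 65.0% (Robo2), 78.3% (Slit3) and 57.0% (Robo1), beside a median of 62.3% over the 13213 windows with a D14 peak and 52.7% over all. Slit3 was the richest in CpG, with 41 CG pairs in 300 bases, against 30 for Slit2, 17 for Robo2 and 15 for Robo1. The core letters bound by RUNX proteins, TGTGGT, were searched on both strands and were in none of the 8 member windows. They were in 16.8% of all windows and in 11.4% of those with a D14 peak. The AP-1 letters TGANTCA were also in none (7.81% of all windows). The TEAD letters GGAATG were in 1 Robo2 window that carried no peak (14.7% of all). A window without these letters says nothing about the rest of the peak, whose sequence was not analysed here.

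Slit and Robo loci held 16 (sham), 64 (D14) and 7 (D56) peaks, counting a peak shared by neighbouring genes once. Slit1 had 0, 5 and 0 peaks (sham, D14, D56), Slit2 had 2, 4 and 1, and Slit3 had 8, 33 and 3. Among the receptors, Robo1 had 1, 10 and 0, Robo2 had 4, 9 and 2, Robo3 had 1, 3 and 1, and Robo4 had 1, 2 and 1. All 7 genes thus had more peaks at D14 than in sham, and Slit3 alone held 33 of the 64. How many of all protein-coding genes had more peaks at D14 than in sham is not given here. Robo3 and Robo4 share 2 D14 peaks, so the 7 genes are not separate counts. The genes with a peak were 6 of 7 (sham), 7 of 7 (D14) and 5 of 7 (D56), beside 60.3%, 73.3% and 53.7% of all protein-coding genes. The D14 list is also the longest. When each list was cut to its 15009 strongest peaks by p-value, the loci held 7, 6 and 7 peaks (sham, D14, D56), and Slit3 held 4, 2 and 3, so the D14 excess rests on peaks below that rank.

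**Figure D1:**
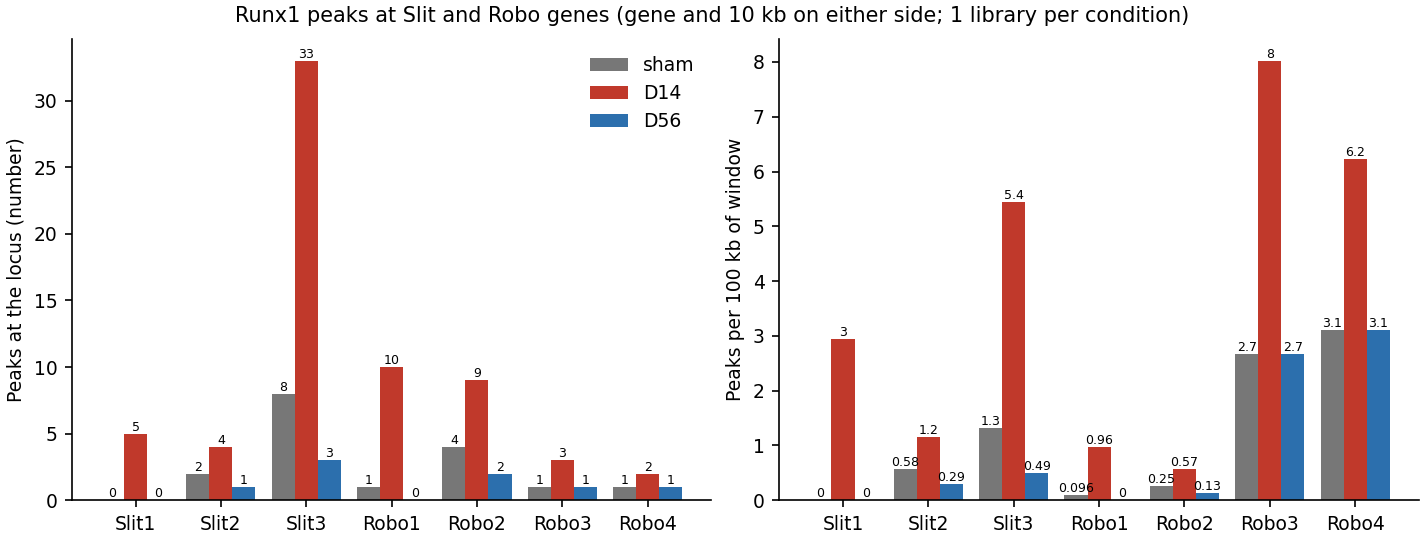
Runx1 peaks at each Slit and Robo gene in the sham, D14 and D56 libraries, as a number (left) and per 100 kb of the window, which is the gene and 10 kb on either side (right); bars are single libraries without error. Slit3 holds 33 peaks at D14, while per 100 kb the short neighbours Robo3 and Robo4, which share peaks, stand highest.

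Of the 64 D14 peaks, 50 met no sham peak by 1 bp or more (78.1%, 66.6 to 86.5). Among all D14 peaks the share was 58.9%. Without Slit3 it was 23 of 31 (74.2%, 56.8 to 86.3). The members' peaks were on the weak side of the list, with a median fold percentile of 44.3 and 7 of 64 above percentile 75. By class of fold, 10 of 10 member peaks under 4 lacked a sham overlap, beside 84.0% of all D14 peaks in that class. From 4 to 5 it was 13 of 15, beside 82.9%, from 5 to 6 it was 15 of 18, beside 74.2%, and from 6 to 8 it was 9 of 11, beside 61.0%. At folds of 8 or more it was 3 of 10, beside 18.1%. The members' share was thus lowest in the highest class, as in the whole list. With Slit3 included, it was above the whole list's in each class. Slit3 was chosen for D14 peaks without a sham overlap. From 4 to 5 it held 10 of the 15 member peaks, and all 10 lacked one. The class shares therefore do not describe the other members alone. No difference within a class was tested. Between lists cut to the 15009 strongest peaks by p-value, 2 of 6 member peaks lacked a sham overlap, beside 25.2% of all.

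At D56, 57 of the 64 D14 peaks were not called (89.1%, 79.1 to 94.6), beside 74.4% of all D14 peaks. Without Slit3, the gene noticed for its D14 peaks, it was 27 of 31 (87.1%, 71.1 to 94.9), an interval that holds the share of all. Depth moved with these counts. The scaled depth at D56 was 40.5% of that at D14, and if pileups shrank in proportion, 25 of the 57 peaks (43.9%) would fall below the lowest pileup in the D56 list, 10, beside 33.0% of all D14 peaks without a D56 overlap. For the 50 peaks without a sham overlap the same reckoning against the sham list, at 80.3% of the D14 depth and a lowest pileup of 14, covers 1 peak (2.0%), beside 5.84% of all. A place above the lowest pileup of a list can also go uncalled, and pileups need not shrink in proportion. A Robo2 place with a pileup of 17 at D14 was called at D56 with 11. Neither count is therefore a limit in either direction. Fragment lengths, which also differ, did not enter this reckoning, and the part of depth in these counts was not tested. Each of the 7 D56 peaks at these loci met a D14 peak (0.613% of all D56 peaks met none), and 2 met no sham peak (3.59% of all). Those 2 places, both at Slit3, are 4.0% (1.10 to 13.5) of the 50 peaks called at D14 and not in sham, beside 1.45% of all such peaks. Of the 14 D14 peaks that met a sham peak, 5 were called at D56 (1 of 6 at Slit3), beside 60.2% of all. These 5, called in each library, are 5 of 64 D14 peaks, beside 24.8% of all D14 peaks. Of the 16 sham peaks, 11 met no D56 peak, beside 44.3% of all.

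**Figure D2:**
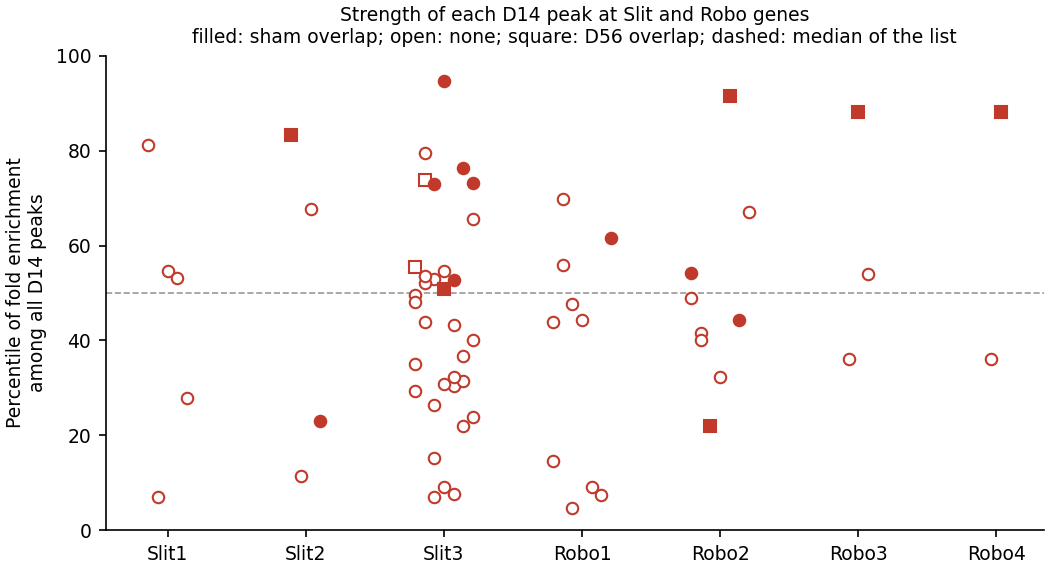
Each D14 peak at a Slit or Robo gene by the percentile of its fold enrichment among all D14 peaks (vertical axis); filled points overlap a sham peak, open ones do not, squares overlap a D56 peak, and peaks shared by Robo3 and Robo4 appear at both. Of the 7 distinct peaks above percentile 75, 5 overlap a sham peak, and the open squares are the 2 Slit3 peaks called at D14 and D56 without sham.

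Slit3, a secreted Slit ligand like the other two, spans 587 kb of chromosome 11 (35121456 to 35708507). Its window held 1.32 peaks per 100 kb in sham, 5.44 at D14 and 0.494 at D56. Of the 227 protein-coding genes above 500 kb, 11 had more D14 peaks than Slit3 and 6 had more per 100 kb, and their median was 5 peaks. Of these long genes, 59.5% (sham), 87.7% (D14) and 46.3% (D56) had a peak, and Slit3 and Robo2 had one in each library. In sham 20 of these genes had more peaks than Slit3, and at D56 23 did. Against all 21887 protein-coding genes, which are mostly shorter, 7647 had more D14 peaks per 100 kb than Slit3, 11489 did in sham and 11429 at D56. In sham and at D56, Slit3 thus stood high among long genes and near the middle of all genes. It was noticed for many D14 peaks, so its D14 count, density and rank are a description only. D14 peaks without a sham overlap numbered 27 of 33 at Slit3 (81.8%, 65.6 to 91.4), the values for which it was chosen, and they are given as a description. Of these 27 summits, 20 lay over 10 kb from any sham summit and 1 within 1 kb.

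The Slit3 start carried the densest group of its D14 peaks. Within 5 kb of the start lay 6 D14 summits, the nearest 494 bp before it, under a peak at chr11:35120872-35121555 with a pileup of 49 and a fold of 8.77. No sham peak met it, and the nearest sham summit was 3.8 kb into the gene. At D56 a peak at chr11:35120879-35121198 had its summit 441 bp before the start, with a pileup of 13 and a fold of 5.23. The other D14 peak called at D56 but not in sham, at chr11:35252051-35252276, lay 131 kb into the gene with a fold of 6.14. Its D56 counterpart was among the weakest of its list, at percentile 1.96 of fold. Both were thus called in each of the injured libraries.

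The strongest Slit3 peak lay far from the start. At chr11:35586990-35587811, 466 kb into the gene, the D14 peak had a pileup of 115 and a fold of 19.5, at percentile 94.6 of the D14 list. Sham had a peak at the same place, at percentile 43.9 of its own list (pileup 29, fold 4.79), and D56 had none. The place thus ranked high in the D14 list and near the middle of the sham list. The next D14 folds were at 46.0 kb (10.3, no sham overlap) and 3.89 kb into the gene (9.36, with one).

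Called in all 3 libraries was a single Slit3 place, 75.5 kb into the gene, at chr11:35196681-35197180 at D14. Its rank within the lists ran the other way, at percentile 90.0 of fold in sham, 50.9 at D14 and 3.35 at D56. Pileups there were 51, 50 and 21. Only 2 sham peaks of all loci met no D14 peak (12.5% of 16, 3.50 to 36.0), beside 8.31% of all sham peaks, and both were at Slit3. They lay at chr11:35232460-35232673 (fold 4.21) and chr11:35415910-35416075 (fold 3.99).

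Along the gene, 16 of the 33 D14 summits fell before or within the first 150 kb, 17 after it and 0 in the last 100 kb. All 3 D56 summits and 5 of the 8 sham summits were in that first stretch. Neighbouring D14 summits were a median of 11.7 kb apart. Other annotated genes lie inside Slit3: the long non-coding RNA Gm46277 contained 4 of the D14 peaks, so these cannot be assigned to Slit3 alone. The hairpin of miR-218-2 was 26.6 kb from the nearest D14 peak, 29.4 kb from the nearest sham peak and 152 kb from the nearest D56 peak. Exons and introns were not told apart.

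**Figure D3:**
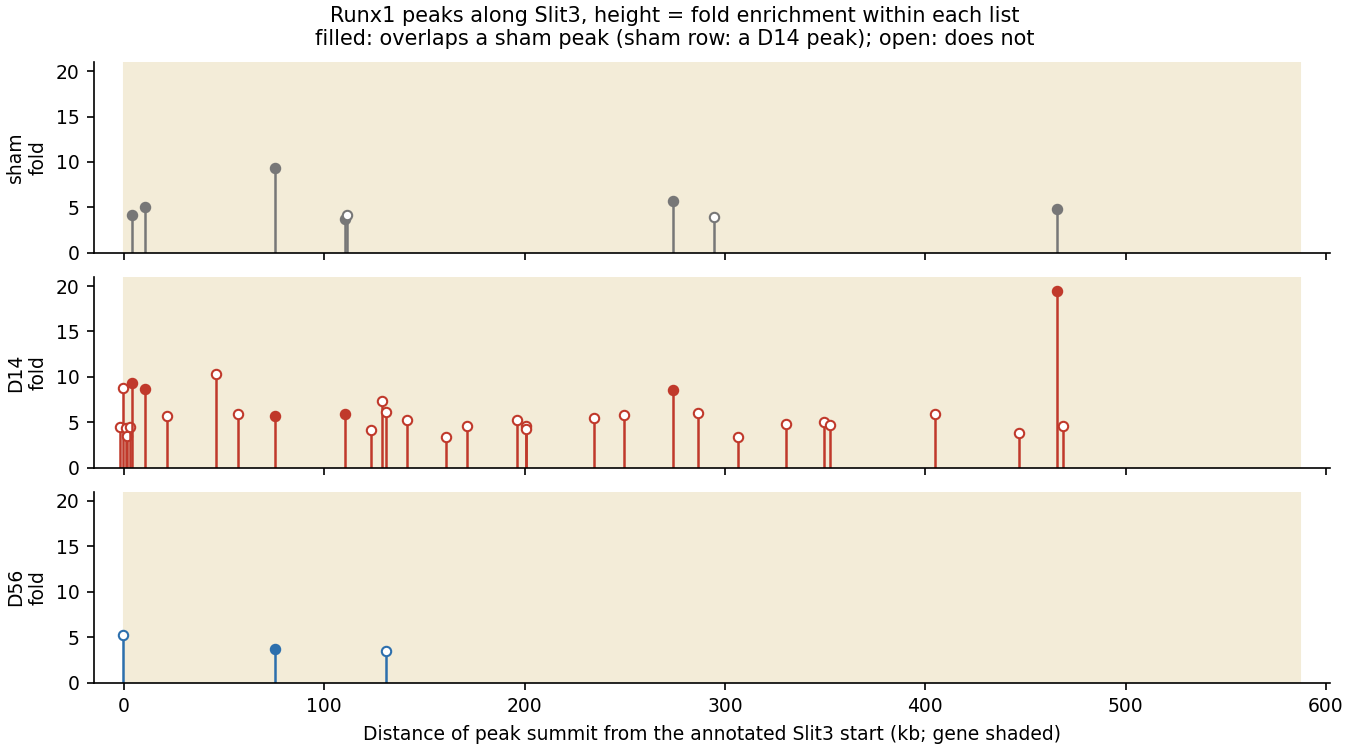
Runx1 peaks along Slit3 in sham, D14 and D56 (rows), by the distance of the summit from the annotated start in kb; stem height is fold enrichment, read within a row only, and open points lack a sham overlap (in the sham row, a D14 overlap). The D14 row carries 33 peaks up to 469 kb into the gene and the tallest at 466 kb, while the 3 D56 peaks lie within 131 kb of the start.

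Slit2, the ligand best studied in axon and vessel guidance, kept a promoter peak in all 3 libraries. It spans 326 kb of chromosome 5 (47981291 to 48307735). The promoter peak had pileups of 43 (sham), 80 (D14) and 23 (D56). Its summits lay inside the promoter window, 58, 26 and 28 bp before the annotated start there, at 47983155, which is inside the gene's bounds. It stood at percentiles 78.2, 83.2 and 70.8 of fold within the lists. The promoter peak thus kept its place and stood in the upper part of each list. A weaker peak 7.46 kb past the gene's other end, at chr5:48315190-48315470, was called in sham (pileup 25) and at D14 (18). D14 added peaks 2.24 kb (fold 3.63) and 40.6 kb (fold 7.63) after the start at 47983155. The miR-218-1 hairpin in Slit2 had no peak within 91.1 kb in any library.

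Slit1, a ligand known mainly from the nervous system, had peaks at D14 alone. It spans 149 kb of chromosome 19 (41597824 to 41747275). The strongest of its 5 peaks, at chr19:41597499-41597912 (pileup 47, fold 10.8, percentile 81.3), crossed the gene's end with its summit 104 bp outside. The neighbouring gene Lcor ends 1.34 kb away, and the tables used here give no strand for Slit1. The other peaks had folds of 3.36 to 6.08, and a pair of them lie within the long non-coding RNA Gm34116. In sham and at D56 the nearest peaks were 54.6 kb outside the gene.

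Robo1, a main Slit receptor with roles in lung development, had 10 D14 peaks, 1 sham peak and none at D56. It spans 1020 kb of chromosome 16 (72027518 to 73047491). The D14 peak with its highest fold (7.98, pileup 43), at chr16:72662941-72663624, lay over the annotated start shown above, with its summit 51 bp after it. The long non-coding RNA Gm29908 ends under the same peak. In sham the nearest summit was 234 kb from this start, under the only Robo1 sham peak, at chr16:72897158-72897420 (pileup 19, fold 3.33). A D14 peak was called there too (pileup 34, fold 6.78). A further D14 peak had a fold of 6.21, and the other 7 had folds of 3.18 to 5.53. Of the 9 D14 peaks away from that start, 8 were downstream of it and 1 was 29.1 kb upstream. The 606 kb at the distal end of the gene held no peak in any library.

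Robo2, the other broadly acting Slit receptor, is the longest member at 1555 kb of chromosome 16 (73891976 to 75447443). Its strongest D14 peak, at chr16:74411457-74412048 (pileup 85, fold 16.6, percentile 91.6), covered the most downstream of its 3 listed starts. Peaks were called at the same place in sham (pileup 34, fold 7.54, percentile 79.7) and at D56 (pileup 14, fold 5.12, percentile 21.9). Their summits lay 156 (sham), 136 (D14) and 145 bp (D56) after the start. A second place was called in all 3 libraries, 318 kb downstream, with pileups of 22 (sham), 17 (D14) and 11 (D56). A further D14 peak, at chr16:74055541-74055753 (pileup 31, fold 6.03), lay 356 kb downstream and met a sham peak (pileup 22, fold 4.74). The other listed starts had no peak within 145 kb in any library.

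D14 added 3 Robo2 peaks 115 to 186 kb upstream of the start with the promoter peak, with folds of 5.02 to 7.55 and no sham overlap. Beyond them, the distal 849 kb of the gene held no peak in any library. In both long receptor genes the called places lay on either side of a start inside the annotated gene, with 1 D14 summit over 1 kb upstream and 8 downstream at Robo1, and 4 upstream and 4 downstream at Robo2. Robo2 held 0.254, 0.571 and 0.127 peaks per 100 kb (sham, D14, D56), and Robo1 0.0962, 0.962 and 0, against a median D14 density of 0.639 for genes above 500 kb. Among these 227 genes, 74 had more D14 peaks than Robo1 and 81 more than Robo2.

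**Figure D4:**
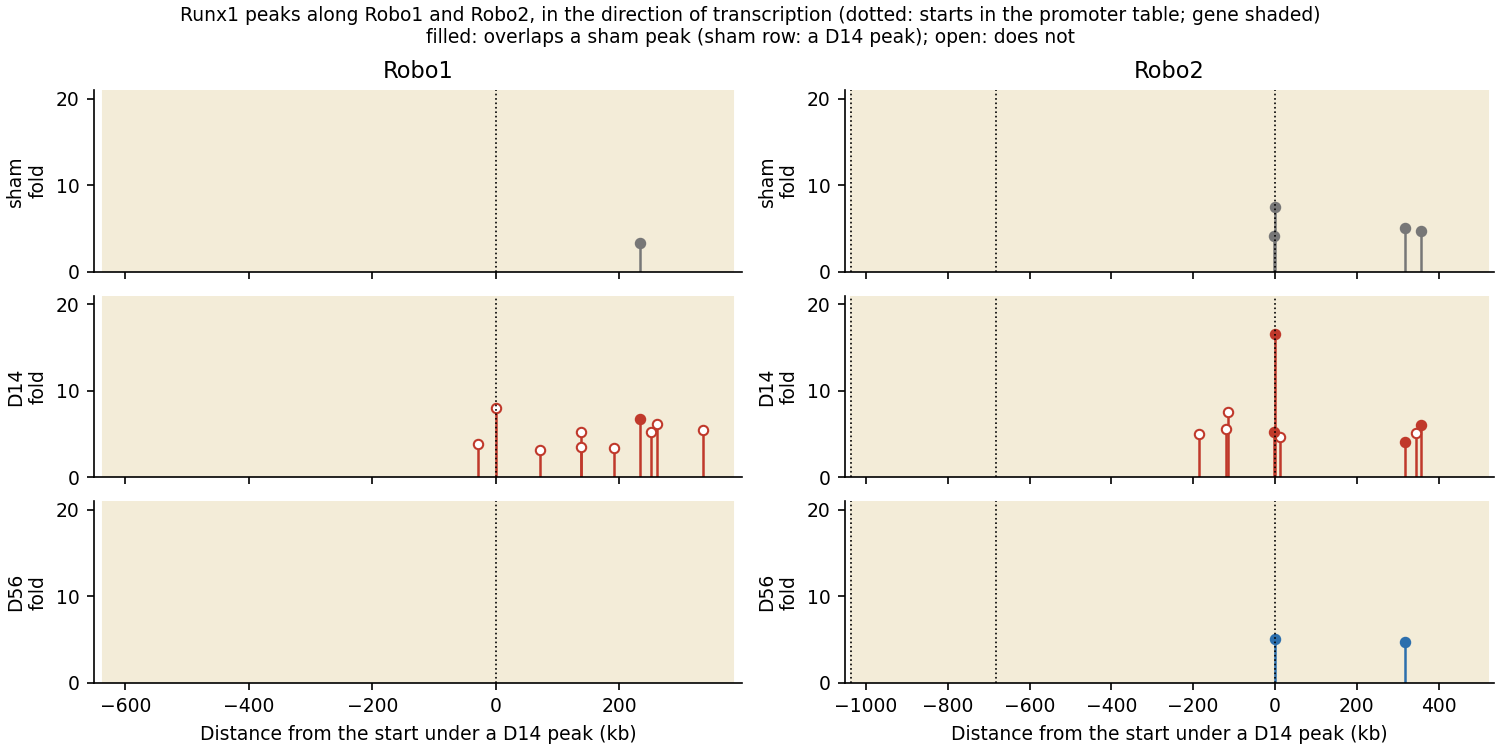
Runx1 peaks along Robo1 (left) and Robo2 (right) in sham, D14 and D56 (rows), by the distance in kb from the annotated start that lies under a D14 peak, in the direction of transcription; stem height is fold enrichment within each list, dotted lines are the starts in the promoter table, and open points lack a sham overlap (in the sham row, a D14 overlap). The distal 606 kb of Robo1 and 849 kb of Robo2, at the left, are empty in all rows.

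Robo3 and Robo4 lie side by side on chromosome 9 (37416045 to 37433436 and 37401902 to 37414023), and their windows share 2 D14 peaks. The strongest, inside Robo3 at chr9:37420648-37421059, was called in all 3 libraries. Its pileups were 43 (sham), 112 (D14) and 21 (D56), and it stood at percentiles 58.7, 88.2 and 32.7 of fold within the lists. It lies 6.63 kb outside Robo4 and 12.3 kb from the Robo3 start. A D14 peak inside Robo4, 4.59 kb after its start, was weak (pileup 23, fold 4.83), and none was called in that gene in sham or at D56. Robo3 had a further D14 peak 2.42 kb after its start (pileup 35, fold 6.01). Neither gene's promoter window met a peak in any library.

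The windows' edges changed the totals little, but they decided some counts of single genes. Robo4 had 0 peaks in its body in sham and at D56. Its 1 peak in each was the one inside Robo3, so Robo4 counts there as a gene with a peak through its flank alone. The farthest peak inside a flank was the D14 peak in Robo4, counted for Robo3 at 9.39 kb. The nearest outside was a D14 peak 11.2 kb from Slit3, with a fold of 3.58. With gene bodies alone the loci held 15, 62 and 6 peaks (sham, D14, D56), and with 50 kb on either side 17, 71 and 7.

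The genes whose peak numbers were most like those of Slit3 were Dst, Nav2, Itpr1, Lpp and Foxp1. They are the nearest of 545 protein-coding genes of 0.5 to 2 times its length, by the summed difference in log2(peaks + 1) over the 3 libraries. Lpp, an adhesion-site protein, had 10, 26 and 3 peaks (sham, D14, D56), and Foxp1, a forkhead transcription factor, had 10, 35 and 4. The cytoskeletal linker Dst had 11, 29 and 3, and the calcium channel Itpr1 10, 26 and 3. Nav2 had 9, 34 and 2.

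Genes that act with Robo receptors were counted from a list of 32: binding partners of the receptor tail, actin regulators, proteoglycans that present Slit, and other ligands and co-receptors. A peak was called at 28 (sham), 32 (D14) and 24 (D56) of them, beside 60.3%, 73.3% and 53.7% of all protein-coding genes. The partners had medians of 2, 4.5 and 1 peaks, beside 1, 2 and 1 over all protein-coding genes. In these comparisons length was not matched, and the partners ran from 13.3 kb (Flrt3) to 1098 kb (Dcc). No sham peak met 55.6% (48.1 to 62.8) of their 171 D14 peaks, beside 58.9% of all D14 peaks.

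The srGAP proteins, which bind the Robo tail and inactivate small GTPases, were among the partners with the most D14 peaks. Srgap1 had 2, 14 and 0 peaks (sham, D14, D56), Srgap2 had 2, 10 and 1, and Srgap3 had 0, 11 and 0. These are long genes, and per 100 kb they had 4.88 (Srgap1), 3.81 (Srgap2) and 4.41 (Srgap3) D14 peaks, beside a median of 3.47 over all protein-coding genes. Cables1, an adaptor that links Robo to Abl kinase, had 10, 15 and 4, and Unc5b, a netrin receptor that also binds Robo4, had 4, 12 and 4. With lists of 15009 peaks each, 24, 27 and 24 of the 32 genes had a peak. The D56 list stays whole in this cut, and 53.7% of all protein-coding genes had a peak in it. The share of all genes in the cut sham and D14 lists is not given here.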

How the data were processed

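The data are 3 Runx1 ChIP-seq peak lists, each called by the authors in 1 library against its own input. Per the file headers, MACS 2.0.10.20120913 kept peaks at q-values up to 0.01, took the genome as 1.87 Gb, and scaled ChIP down to the smaller input. BWA, SAMtools, MACS2 and build mm10 come from the submitters' processing notes. The deposited lists give a pileup (signal), a −log10 p-value and q-value, and a fold enrichment (a ratio). Groups came from sample titles. Input tags numbered 39609538 (sham), 49312043 (D14) and 19949187 (D56), which set the scaled depth.

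Computed here, with Python 3.11.15, pandas 2.3.3 and SciPy 1.17.1, were peaks per locus on 21 chromosomes, overlaps of 1 bp or more, and percentiles of fold within a list. Gene positions and promoter sequences are RefSeq's (GRCm38.p6); all 7 members, 32 partners and 43 guidance genes matched. The overlap and window steps were tested on simulated data. Members and lists were chosen with earlier results of these data known. Named peaks are, for each gene, the 3 highest D14 folds, those at a start, those in all libraries and those without a D14 overlap; others named were chosen after their values were seen. Planned searches for motifs at summits and for exons were not made, for want of a genome and exon table here.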

Additional observations from a re-analysis of the deposited data

How the results depend on the processing

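Of 54 recomputed values, 39 stayed within 1.5 times the count or within the interval of the share, and 15 did not. The numbers of peaks at Slit and Robo loci (16 in sham, 64 at D14, 7 at D56) were 7, 39 and 4 with a fold of 5 or more, and 4 at D56 with a −log10 q of 5 or more. In lists of equal length they were 7 in sham and 6 at D14 ranked by p-value, and 10 and 8 ranked by fold. D14 thus no longer held more than sham, and these counts are too small and close to give an order. The share of D14 peaks without a sham overlap was then 33.3% (by p-value) and 50% (by fold), beside 25.2% and 32.7% of all D14 peaks, and that without a D56 overlap 50% in both, beside 23.1% and 27.3%. The share of sham peaks without a D14 overlap was 42.9% by p-value, 60.0% by fold and 37.5% with reciprocal overlap of 50%, beside 25%, 32.4% and 26.2% of all sham peaks. These values rest on 6 to 10 peaks, or 16 for reciprocal overlap. The shorter lists hold fewer D14 and sham peaks by construction, and no other cause was tested. No paired analysis was possible because each condition has 1 library. The D56 library had the fewest input tags, 19949187, and the part of depth in its shorter list was not tested.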

Other observations

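Other guidance families were counted at the same loci rule. Netrins and their receptors had a peak at 7, 10 and 6 of 10 genes (sham, D14, D56), class 3 semaphorins and their receptors at 10, 13 and 7 of 14, and ephrins and their receptors at 15, 19 and 12 of 19. The shares of all protein-coding genes with a peak were 60.3%, 73.3% and 53.7%, and gene length was not matched. No sham peak met 58.1% (43.3 to 71.6), 59.5% (48.8 to 69.4) and 60.0% (49.4 to 69.8) of the D14 peaks in these families, close to the 58.9% of all D14 peaks. Among netrin genes, Unc5b led with 12 D14 peaks, ahead of Ntn1, which encodes netrin-1 (6, 7 and 1 peaks in sham, D14 and D56), and Ntn4 (7, 6 and 2).

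Among the semaphorin genes, 3 receptors had the most D14 peaks by number. Neuropilin 2 (Nrp2) had 4, 14 and 1 peaks, Plxna2 6, 12 and 4, and Plxnd1 5, 10 and 2. Per 100 kb the highest was the ligand Sema3b, with 19.0 at D14, beside 16.5 for Plxnd1, 10.3 for Nrp2 and 5.53 for Plxna2. Sema3e had none in any library. Ephb2, a receptor of B-type ephrins, had 3, 14 and 3, and Epha1 had 7, 10 and 2. Efna1 and Efna5, which encode ligands, tied next with 7 D14 peaks each.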
